A study of Mus musculus with 24 samples.

Results

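The clustered protocadherins are the genes whose symbols start with Pcdha, Pcdhb or Pcdhg followed by a member name. The rule found 58 of them among the 24594 genes of the deposited count table: 14 in the α, 22 in the β and 22 in the γ subcluster. In the mouse assembly GRCm38.p6 (RefSeq positions) they lie side by side on chromosome 18, the α genes at chr18:36930285-37188897, the β genes at chr18:37264998-37521419 and the γ genes at chr18:37661775-37841873.

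RNA sequencing was done on 24 libraries of mouse embryonic stem cells (mESCs) of 129S6/SvEvTac background, grown without treatment, to see what the loss of individual subunits of the imitation switch (ISWI) chromatin remodelers does to transcription. The groups were Rsf1Δ and WstfΔ (2 libraries each) with 2 wild-type (WT) libraries of batch A, Tip5Δ (2) with 2 WT of batch B, BptfΔ (2) with 2 WT of batch C, 3 libraries labelled Cecr2Δ with 3 WT of batch D, and Acf1Δ (2) with 2 WT of batch E. The genes targeted were Rsf1, Baz1b (the gene of WSTF), Baz2a (TIP5), Bptf, Cecr2 and Baz1a (ACF1). Each line was 1 clone made with CRISPR–Cas9, so a difference between a line and WT cannot be told apart from a difference between clones. The labels give no further allele or agent for any group.

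Clustered protocadherins are adhesion proteins of the cadherin superfamily, best known from the nervous system, where each neuron uses its own combination of them and like combinations recognise each other. Each α and γ gene has its own variable exon with its own promoter, which codes for the outside and membrane part of the protein and is spliced to constant exons that all genes of the subcluster use. The β genes have no constant exons. Choice of promoter depends on DNA methylation and on looping between CTCF sites at promoters and enhancers, while the C-type genes (Pcdhac1, Pcdhac2, Pcdhgc3, Pcdhgc4 and Pcdhgc5) form a group of their own.

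Depth was between 13417755 and 36721585 counts per library, lowest in WstfΔ. Values below are counts, or CPM (counts relative to the library total, scaled with the trimmed mean of M values, TMM). The mRNA of the targeted gene was lower in Rsf1Δ, WstfΔ, BptfΔ and Acf1Δ. In BptfΔ the genes targeted in 2 other lines were called as lower too, Cecr2 at 42.9 and 39.3 against 120 and 122 CPM (adjusted p = 1.49e-13) and Baz1a, the gene of Acf1, at 23.5 and 24.4 against 80.5 and 79.3 CPM (adjusted p = 3.99e-17). Without a call, Baz1a was also lower in Rsf1Δ (45.2 and 49.3 CPM) and WstfΔ (41.7 and 41.3), against 70.5 and 76.9 in their WT. The libraries labelled Cecr2Δ had 50.4, 52.9 and 53.1 against 73.4, 73.7 and 69.4 CPM. Baz2a in Tip5Δ was at 425 ± 5.88 against 508 ± 12.7 CPM (SD, n = 2 each), and Cecr2 was higher, at 146 ± 3.39 against 113 ± 7.51 CPM (SD, n = 3 each), in the libraries labelled Cecr2Δ, which are named by their label for that reason. The paper detected none of the deleted protein in any of its lines by western blot, and clones were also checked by DNA sequencing. The mRNA level measures neither of these. The 4 libraries of batch C held RNAs without a poly(A) tail at levels the others did not reach, with Rpph1, the RNA of ribonuclease P, between 3288 and 4824 CPM there and at most 3.39 CPM elsewhere. Of the stem cell markers Pou5f1, Sox2, Nanog, Zfp42 and Esrrb none was called as lower in any line and Esrrb was called as higher in BptfΔ, and their summed level was between 2406 and 3869 CPM in all 24 libraries.

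The counts of the α and γ members were first compared with each other, because one read in a constant exon can be counted for every member. GENCODE exons (release M21, same build) show 3 exons that all 22 γ genes use, with a summed length of 2119 bases, and 3 exons of 2860 bases used by the 13 α genes found there by name. The last constant γ exon lies at chr18:37839903-37841873. The γ members had nearly equal counts. Pcdhga6 (gene ID 93714) had the lowest count summed over the 24 libraries, 36290, and Pcdhgc3 (93706) the highest, 42675, which is 17.6% more. The other 20 γ members lay between them, and 21 of the 22 were within 10% of Pcdhga6. Pcdhgc4 (36310 counts) and Pcdhgc5 (36535) were 0.055% and 0.68% above it.

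The α members were near-equal too, at a far lower level. Summed counts ran from 227 for Pcdha11 (12942) to 269 for Pcdha12 (192164), and 12 of the 14 were within 10% of Pcdha11, Pcdhac1 (234 counts) among them. Pcdhac2 had 255 counts. In each library the variance of the 14 counts divided by their mean had a median of 0.072, where separate genes of one level would give about 1. Among the 22 γ counts that ratio had a median of 2.03 and ran from 1.11 to 5.48, so the γ members were near-equal but not copies of 1 count. Since most counts of an α or γ gene were common to its subcluster, a fold change of a whole gene is mostly that of the common counts, and calls of near-equal members are one observation repeated.

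To see single γ genes, the count of the lowest γ member was subtracted from each member in each library. What remains comes from the variable exon, less whatever variable reads the lowest member itself has. In the 11 WT libraries Pcdhgc3 stood at 10.3 ± 3.46 CPM (SD, n = 11), or 4.01 CPM per kilobase of variable exon. Next came Pcdhga1 with 1.58, Pcdhga11 with 1.4 and Pcdhga12 with 1.13 CPM per kilobase. Pcdhgc4, at 0.030 CPM per kilobase, and Pcdhga6, at 0.040, were at the level of the subtraction itself. The C-type gene Pcdhgc5 was at 0.098. One γ gene thus led in these WT cells with the others below it, and the order of neighbours such as Pcdhga1 and Pcdhga11 was within their spread of 0.79 and 0.96 CPM (SD, n = 11).

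**Figure D1:**
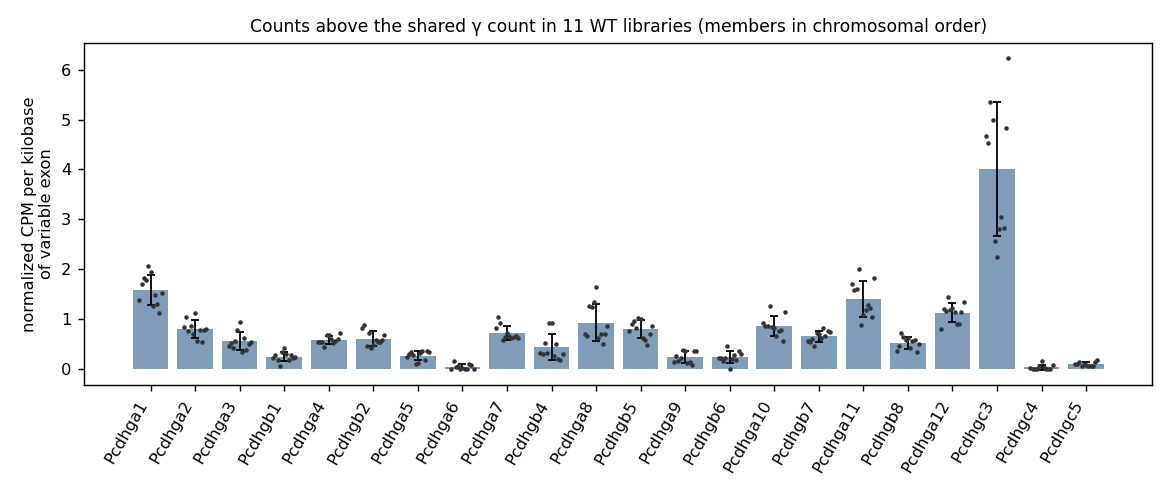
Counts of each γ member above the lowest γ count of its library, in normalized CPM per kilobase of variable exon, for the 22 members in chromosomal order. Bars are means, whiskers SD and dots the 11 WT libraries, and Pcdhgc3 has the tallest bar, 4.01, with its libraries spread over a 2.26-fold fitted range of WT batches.

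WT cells of different batches differed in γ counts, in constant and variable exons differently. The lowest γ member, standing for the constant exons, was at 59.4 and 57.7 CPM in batch A, 70.8 and 67.7 in batch B, and 68.9 and 74.3 in batch E. It was lower in batch D, at 41.3, 54.3 and 50.4 CPM, and lowest in batch C, at 38.5 and 36.2 CPM. Batch means thus spanned 1.92-fold. The summed counts above it, from the variable exons, were at 45.9 and 47.4 CPM in batch C, inside the 35.0 to 54.1 CPM of the other WT libraries, and batch means spanned 1.38-fold. Relative to the constant exons, the variable exons had 125% ± 8.20 (SD, n = 2) in WT of batch C against means of 67.5% to 79.2% in the other 4 batches. The non-polyadenylated RNAs move with this split of batches, and their part in it was not tested.

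Subtracted levels of single γ members also ranged over WT batches, 3.85-fold in the fit for Pcdhgb4 (adjusted p = 6.85e-05), 3.43-fold for Pcdhga9 (0.0048) and 2.49-fold for Pcdhga8 (1.98e-06). The subtracted level of Pcdhgc3 was 12 and 11.6 CPM in WT of batch A, 13.8 and 12.8 in batch B and 12.4 and 16 in batch E. In batch C it was 6.56 and 5.78 CPM and in batch D 7.20, 7.81 and 7.24 CPM, with no overlap between these 2 batches and the other 3. The fitted range of Pcdhgc3 was 2.26-fold (edgeR quasi-likelihood F test over the batch terms, adjusted p = 1.39e-07).

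In whole counts, 5 of the 41 members tested differed among WT batches by over 2-fold at an adjusted p under 0.01, against 24% of all genes tested. They were Pcdhb16 (8.47-fold), Pcdha8 (3.82-fold), Pcdha12 (3.15-fold), Pcdhb22 (2.73-fold) and Pcdhb17 (2.27-fold). Pcdhac1 had the third widest range, 3.71-fold, with an adjusted p of 0.0126. The 22 γ members ranged over 0.82 to 0.98 log2 units, so none passed the 2-fold minimum. This count rests on single libraries. It was 0 without either WT library of batch A, 3 without either of batch B, without library 1 of batch C or without library 2 of batch E, and 17, 2 and 1 without library 1, 2 or 3 of batch D.

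Each line was then compared with the WT libraries of its own batch. Of the 58 members 41 passed the filter on low counts: all 14 α, all 22 γ and 5 β. Members were called where edgeR's quasi-likelihood test gave an adjusted p below 0.01 and the change exceeded 2-fold (1 on the log2 scale) either way. By this rule 2 members fell in Rsf1Δ, 2 fell in WstfΔ, and 1 rose and 1 fell in BptfΔ. Among all genes tested 5.26% fell and 0.650% rose in Rsf1Δ, 6.57% fell and 3.87% rose in WstfΔ, and 8.59% fell and 5.25% rose in BptfΔ.

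No member was called in Tip5Δ, in the libraries labelled Cecr2Δ or in Acf1Δ, by edgeR or by DESeq2. Among all genes tested 2.63% fell and 0.0829% rose in Tip5Δ, 2.33% fell and 0.784% rose in the libraries labelled Cecr2Δ, and 3.32% fell and 1.14% rose in Acf1Δ. At an unadjusted p under 0.05 in edgeR, 1 member rose and 1 fell in Tip5Δ, 22 rose and 1 fell in the libraries labelled Cecr2Δ, and 1 fell in Acf1Δ.

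**Figure D2:**
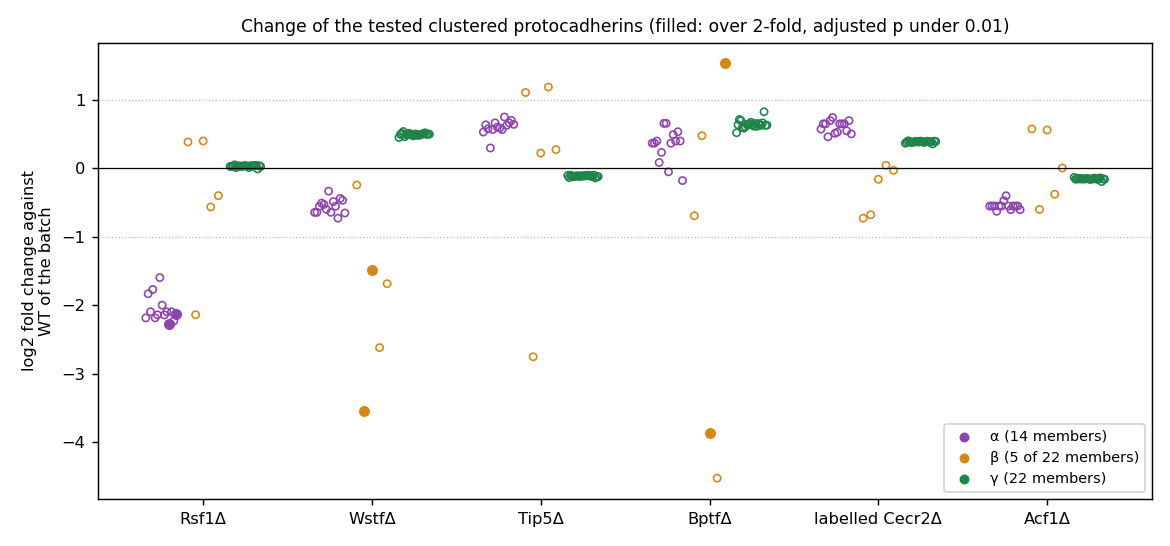
Log2 fold change of the 41 tested members in each line against the WT libraries of its batch, α in purple, β in orange and γ in green, with filled points for calls. The γ members sit together within each line because they share reads, near 0.50 in WstfΔ and 0.64 in BptfΔ, while the α members lie near -2.11 in Rsf1Δ.

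The γ members rose by less than 2-fold in WstfΔ, BptfΔ and the libraries labelled Cecr2Δ. In WstfΔ the lowest γ count stood at 77.4 and 88.5 CPM against 59.4 and 57.7 in WT. In BptfΔ it stood at 57.2 and 58.7 CPM against 38.5 and 36.2, and in the libraries labelled Cecr2Δ at 66.5, 62.0 and 63.5 CPM against 41.3, 54.3 and 50.4. The groups did not overlap in any of the 3. They did not overlap in the other lines either. Rsf1Δ, at 59.6 and 60.2 CPM, lay just above its WT. Tip5Δ had 62.5 and 65.0 against 70.8 and 67.7 CPM and Acf1Δ 62.7 and 66.2 against 68.9 and 74.3, both lower. Non-overlap of 2 or 3 libraries a group thus does not set a line apart. Only WstfΔ lay above all 11 WT libraries, whose highest was 74.3 CPM. Since each library is a pool of cells, more cells with a gene on and more of its RNA per cell (or fewer and less) cannot be told apart, for these and all other members.

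With no fold-change minimum all 22 γ members passed an adjusted p under 0.01 as increases in each of these 3, where 16.4%, 21.4% and 9.52% of all genes did so in WstfΔ, BptfΔ and the libraries labelled Cecr2Δ. These are repeats of shared reads, so the sign of 1 member carries the rest. Pcdhga6, which stands for the constant exons, changed by 0.50 ± 0.089 (log2 fold change ± SE, adjusted p = 4.77e-05) in WstfΔ, 0.63 ± 0.094 (2.82e-06) in BptfΔ and 0.39 ± 0.070 (0.000102) in the libraries labelled Cecr2Δ. The median over γ members was 0.50, 0.64 and 0.39, beside -0.026, 0.015 and -0.0022 over all genes.

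The size of the rise in BptfΔ depends on the WT libraries chosen. WT of batch C was the lowest of the WT batches, at 38.5 and 36.2 CPM for the lowest γ member. A fit without a batch term also takes in differences between batches, so in it line and batch cannot be told apart. Against all 11 WT libraries, without a batch term, Pcdhga6 changed by 0.038 in BptfΔ (adjusted p = 0.892), by 0.18 in the libraries labelled Cecr2Δ (0.494) and by 0.56 in WstfΔ (0.0495). In Rsf1Δ, Tip5Δ and Acf1Δ Pcdhga6 differed from WT by 0.028, -0.12 and -0.15 with adjusted p-values of 0.851, 0.40 and 0.157.

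**Figure D3:**
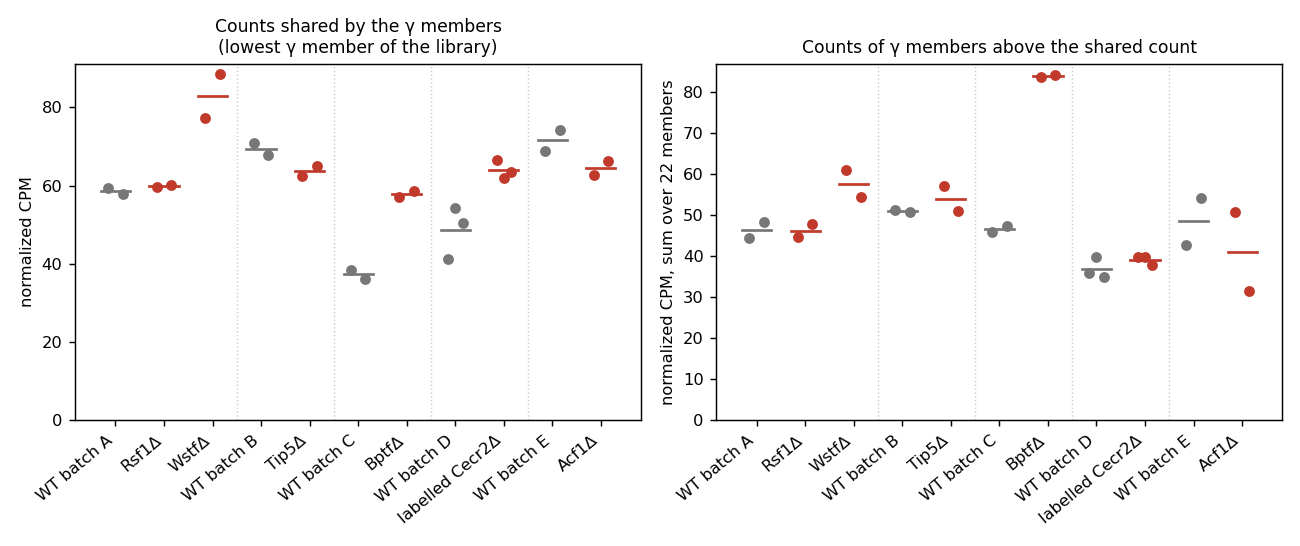
Left, the lowest γ count of each library in normalized CPM, standing for the constant exons. Right, the summed γ counts above it, from the variable exons. Grey dots are WT and red dots lines, bars are group means and dotted lines separate batches; the BptfΔ libraries, at 83.6 and 84.2 CPM on the right, stand above all others, and on the left they lie among the WT libraries.

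The variable exons of the γ genes rose in BptfΔ. Summed over the members they had 83.6 and 84.2 CPM, above every other library, where WT of batch C had 45.9 and 47.4, a 1.80-fold higher mean. In WstfΔ they had 61.0 and 54.3 CPM against 44.3 and 48.4 in WT, 1.24-fold higher. In the libraries labelled Cecr2Δ the constant exons were 1.32-fold higher, but the variable exons, at 39.7, 39.8 and 37.7 CPM, overlapped the 35.9, 39.7 and 35.0 CPM of their WT libraries. They overlapped WT in Rsf1Δ, Tip5Δ and Acf1Δ as well.

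Refitted with the shared counts subtracted, 21 of the 22 γ members passed the filter. In BptfΔ 8 of them rose and 0 fell, where 5.27% of all genes tested rose and 8.61% fell. At an unadjusted p under 0.05 the numbers were 11 and 1. Pcdhgc3 had the smallest p, with 338 and 318 subtracted counts in BptfΔ against 125 and 99 in WT, or 20.2 and 18.4 against 6.56 and 5.78 CPM. This was a log2 fold change of 1.64 ± 0.17 (SE), 3.11-fold, with an adjusted p of 5.8e-09. Both BptfΔ libraries exceeded all 11 WT libraries, of which the highest was at 16 CPM.

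The other 7 belong to the A and B types of γ genes. Pcdhga11 rose from 2.31 and 2.86 to 7.0 and 8.20 CPM (2.95-fold, adjusted p = 2.21e-05), Pcdhga12 from 3.46 and 3.62 to 9.04 and 7.74 CPM (2.36-fold, adjusted p = 0.000138), and Pcdhga8 from 3.52 and 4.26 to 8.5 and 7.22 CPM (2.02-fold, adjusted p = 4.11e-05). Pcdhgb8 rose 2.19-fold, Pcdhgb2 2.32-fold, Pcdhga7 2.05-fold and Pcdhga5, with 15 and 14 against 5 and 5 counts, 3.04-fold. The last 3 held less well: of 11 alternative fits the adjusted p missed 0.01 in 6 for Pcdhgb2 (lowest log2 fold change 0.79), in 4 for Pcdhga7 (0.94) and in 8 for Pcdhga5 (0.33), those without any 1 library of batch C among them in each case. BptfΔ did not overlap its WT libraries in any of the 8, which follows in part from choosing genes called in this comparison. Members without a call, such as Pcdhga1, Pcdhga3 and Pcdhgb7, did not overlap either. The mean of BptfΔ lay outside the range of the 11 WT libraries in all of the 8 but Pcdhga5. It did so too in members without a call such as Pcdhgb4 and Pcdhgb7. Pcdhgc3, Pcdhga8, Pcdhga11, Pcdhga12 and Pcdhgb8 kept an adjusted p under 0.01 in all 11 alternative fits, those against all 11 WT libraries and without each library in turn included. Not all of these fits kept the 2-fold minimum: the log2 fold change of Pcdhgc3 was 0.92 without a batch term, and that of Pcdhga8 was 0.99 with own WT libraries alone, 0.86 without WT library 1 of batch C and 0.90 without BptfΔ library 1. Leaving out any 1 of the 4 libraries of batch C left 5 calls, a count that was not tied to these genes.

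The 5 γ genes at the start of the subcluster did not rise. Pcdhga1, Pcdhga2, Pcdhga3, Pcdhgb1 and Pcdhga4 had log2 fold changes between -0.76 and 0.081 in BptfΔ, and the 8 genes that rose all lie downstream of them. This was seen in the values and has no test of its own. Pcdhga1 was the lowest, with 57 and 47 against 101 and 86 subtracted counts and an adjusted p of 0.00807. The C-type genes Pcdhgc4 (3 and 7 against 3 and 8 counts) and Pcdhgc5 (10 and 14 against 11 and 7) had few counts in both groups.

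In WstfΔ 3 γ members rose and 1 fell after the subtraction, where 4.02% of all genes tested rose and 6.43% fell. Pcdhga12 went from 59 and 83 to 83 and 94 subtracted counts, 2.20-fold higher after scaling (adjusted p = 0.000742), Pcdhgb8 rose 2.19-fold (0.00132) and Pcdhga5 2.35-fold (0.0066). Pcdhga2 fell from 54 and 62 to 15 and 15 counts, a log2 fold change of -1.12 ± 0.34 (SE, adjusted p = 0.00871). Pcdhgc3, at 17.6 and 15.1 against 12 and 11.6 CPM, had a log2 fold change of 0.48 with an adjusted p of 0.0124. Leaving out 1 library of the comparison left 0 to 2 calls of γ members, 0 without WT library 1 of batch A.

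The change of Pcdhgc3 in BptfΔ differed from that in each of the other 5 lines, with shared counts subtracted, by 1.15 log2 units from WstfΔ, 1.57 from the libraries labelled Cecr2Δ, 1.86 from Rsf1Δ, 1.87 from Tip5Δ and 2.05 from Acf1Δ (edgeR contrast of changes, largest adjusted p = 0.000324). No γ member was called after subtraction in Rsf1Δ, Tip5Δ, the libraries labelled Cecr2Δ or Acf1Δ by edgeR or DESeq2, although at an unadjusted p under 0.05 there were 2, 1, 3 and 4. The antisense gene BC037039 overlaps Pcdhgc3 over 1559 bases, Gm26672 on the opposite strand overlaps Pcdhga11 (1381) and Pcdhga12 (422) and Gm37165 overlaps Pcdhga7 (536) and Pcdhga8 (416), and the strand used in counting is not settled by the sources, so reads of such pairs cannot be told apart.

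**Figure D4:**
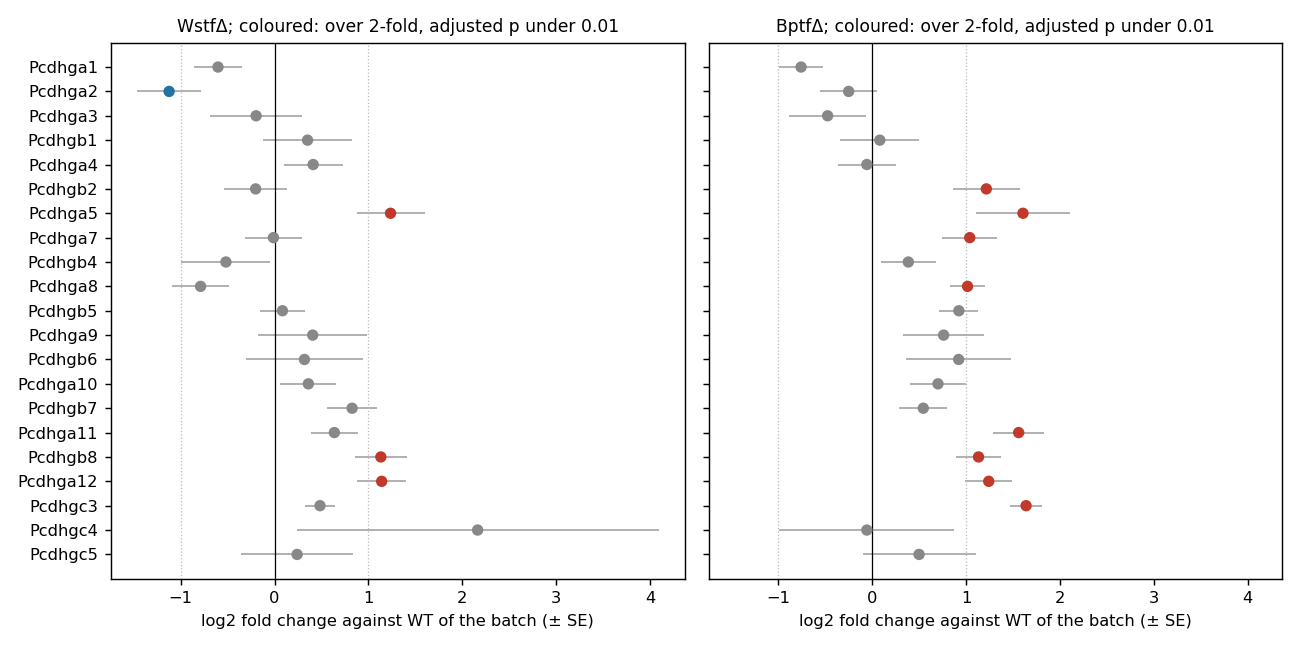
Log2 fold change against WT of the batch, with its SE, of 21 γ members after subtraction of the shared count, in chromosomal order from top to bottom, for WstfΔ and BptfΔ. Red points rose and blue points fell by over 2-fold at an adjusted p under 0.01: 3 and 1 in WstfΔ, 8 and 0 in BptfΔ.

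The α genes had few reads in all lines, between 1 and 25 counts in any library, and 2 of the 14 were called as lower in Rsf1Δ. Pcdha11, the lowest member, had 5 and 2 counts in Rsf1Δ against 16 and 15 in WT of batch A, a log2 fold change of -2.09 ± 0.66 (SE, adjusted p = 0.0173). The members called were Pcdhac2 (gene ID 353237), with 6 and 2 against 20 and 16 counts (-2.12 ± 0.58, adjusted p = 0.00583), and Pcdha8 (353235), with 5 and 2 against 17 and 18 (-2.27 ± 0.65, adjusted p = 0.0085). The WT counts of Pcdhac2 were 4.46 times those of Rsf1Δ after scaling, with a 95% interval of 2.04 to 11.1 from counting error alone. All 14 α members had log2 fold changes from -2.27 to -1.60 and adjusted p-values from 0.00583 to 0.0524, around the threshold, so which of these near-equal genes are called says little about the genes.

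Rsf1Δ did not overlap its own WT libraries in Pcdha11, Pcdha8 or Pcdhac2. WT libraries of other batches were as low, however, with Pcdha11 at 0.033 to 0.34 CPM in batch D and 0.16 and 0.29 in batch C, against 0.21 and 0.081 in Rsf1Δ. Without either WT library of batch A, or without Rsf1Δ library 2, no member was called in Rsf1Δ, and 1 was called without Rsf1Δ library 1. DESeq2 called 0, with adjusted p-values of 0.0140 for Pcdhac2 and 0.0154 for Pcdha8.

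In the other lines no α member passed. Median log2 fold changes were -0.55 in WstfΔ, 0.62 in Tip5Δ, 0.38 in BptfΔ, -0.55 in Acf1Δ and 0.65 in the libraries labelled Cecr2Δ. The change of Pcdhac2 in Rsf1Δ differed from that in Tip5Δ by -2.76 ± 0.72 (SE, adjusted p = 0.00681), where Pcdhac2 had 25 and 20 counts against 18 and 14. The same contrast of Pcdha8, which shares those reads, missed the threshold (adjusted p = 0.0119), as did Pcdhac2 for Rsf1Δ against WstfΔ (0.0914), BptfΔ (0.0959) and Acf1Δ (0.173). After subtraction α members have too few counts for a test, so single α promoters cannot be read from these libraries.

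The β genes, which share no exons with each other apart from Pcdhb21 and Pcdhb22, showed changes of single genes. Their counts are low, and 17 of the 22 did not pass the filter, with at most 8 counts in any library and 1 to 57 over all 24. The 5 that passed hold 76.9% of all β counts, Pcdhb17 (gene ID 93888) alone 32.5%. In WT libraries Pcdhb17 was at 1.15 ± 0.46 CPM (SD, n = 11), or 0.25 CPM per kilobase. Pcdhb22 (93893) was at 0.086, Pcdhb14 (93885) at 0.053, Pcdhb18 (93889) at 0.045 and Pcdhb16 (93887) at 0.038 CPM per kilobase. The last 3 are not separated by their spread.

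Pcdhb17, at chr18:37485021-37488290, was the most abundant β gene in WT and fell in BptfΔ. It had 2 and 2 counts in BptfΔ against 42 and 23 in WT of batch C. The log2 fold change was -3.87 ± 0.59 (SE, adjusted p = 3.95e-06), and WT counts were 15.3 times those of BptfΔ, with a 95% interval of 5.69 to 57.7 from counting error alone. BptfΔ was below all 11 WT libraries, whose lowest was 0.61 CPM. The fall was called in all 13 alternative fits of the counts.

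It also fell in WstfΔ, with 7 and 8 counts against 37 and 37 (log2 fold change -1.48 ± 0.45, adjusted p = 0.00832), again with no overlap and, at 0.51 and 0.59 CPM, below the lowest of the 11 WT libraries. That call was lost without any 1 of the 4 libraries compared, with adjusted p-values from 0.0219 to 0.071. In Rsf1Δ, with the same WT libraries, Pcdhb17 had 44 and 53 counts and a log2 fold change of 0.40 (adjusted p = 0.362). The changes in Rsf1Δ and WstfΔ differed by 1.88 ± 0.43 log2 units (adjusted p = 0.00081). In Tip5Δ, the libraries labelled Cecr2Δ and Acf1Δ the log2 fold changes were 0.22, -0.16 and 0.56, and all groups overlapped WT.

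Pcdhb22, at chr18:37518353-37521419, was higher in BptfΔ, with 23 and 21 counts against 5 and 11 in WT, a log2 fold change of 1.53 ± 0.44 (adjusted p = 0.00435) and a ratio of 2.93 with a 95% counting interval of 1.62 to 5.55. BptfΔ, at 1.38 and 1.21 CPM, was above all 11 WT libraries, whose highest was 0.86. In WstfΔ it had 4 and 3 counts against 20 and 20, a log2 fold change of -1.68 with an adjusted p of 0.0133. The change in WstfΔ differed from that in BptfΔ by -3.22 ± 0.70 log2 units (adjusted p = 0.000748). The rise in BptfΔ was lost in several alternative fits, among them DESeq2 (adjusted p = 0.0142), the fit against all 11 WT libraries (0.0202), and those without WT library 1 of batch C (0.104), BptfΔ library 1 (0.0325) or BptfΔ library 2 (0.0150). Pcdhb21, whose exon overlaps that of Pcdhb22 by 455 bases in GENCODE, had at most 8 counts in any library.

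Pcdhb16 had 0 and 1 counts in WstfΔ against 11 and 12 in WT of batch A. WT counts were 13.1 times those of WstfΔ with a counting interval of 2.13 to 539.7, and the adjusted p was 0.00648. It is the member with the widest range among WT batches, from 0.049 CPM in batch D to 0.48 CPM in batch A, so that WstfΔ (0 and 0.073 CPM) lay within the WT range of other batches. Without WstfΔ library 1 or 2 it was not called (adjusted p = 0.0927 and 0.0189), nor without a batch term (0.302) or with no filter beyond 1 count (0.0215), and no member at all was called in WstfΔ by DESeq2 or on leaving out either WT library of batch A. It had 1 and 4 counts in Rsf1Δ against the same WT libraries (adjusted p = 0.0204).

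Pcdhb14 and Pcdhb18 passed no test. Pcdhb14 had 19 and 22 counts in Tip5Δ against 13 and 8 in WT, a log2 fold change of 1.11 with an adjusted p of 0.0518. Pcdhb18 had 0 and 0 counts in BptfΔ against 0 and 4 in WT, a difference not detectable at this depth.

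**Figure D5:**
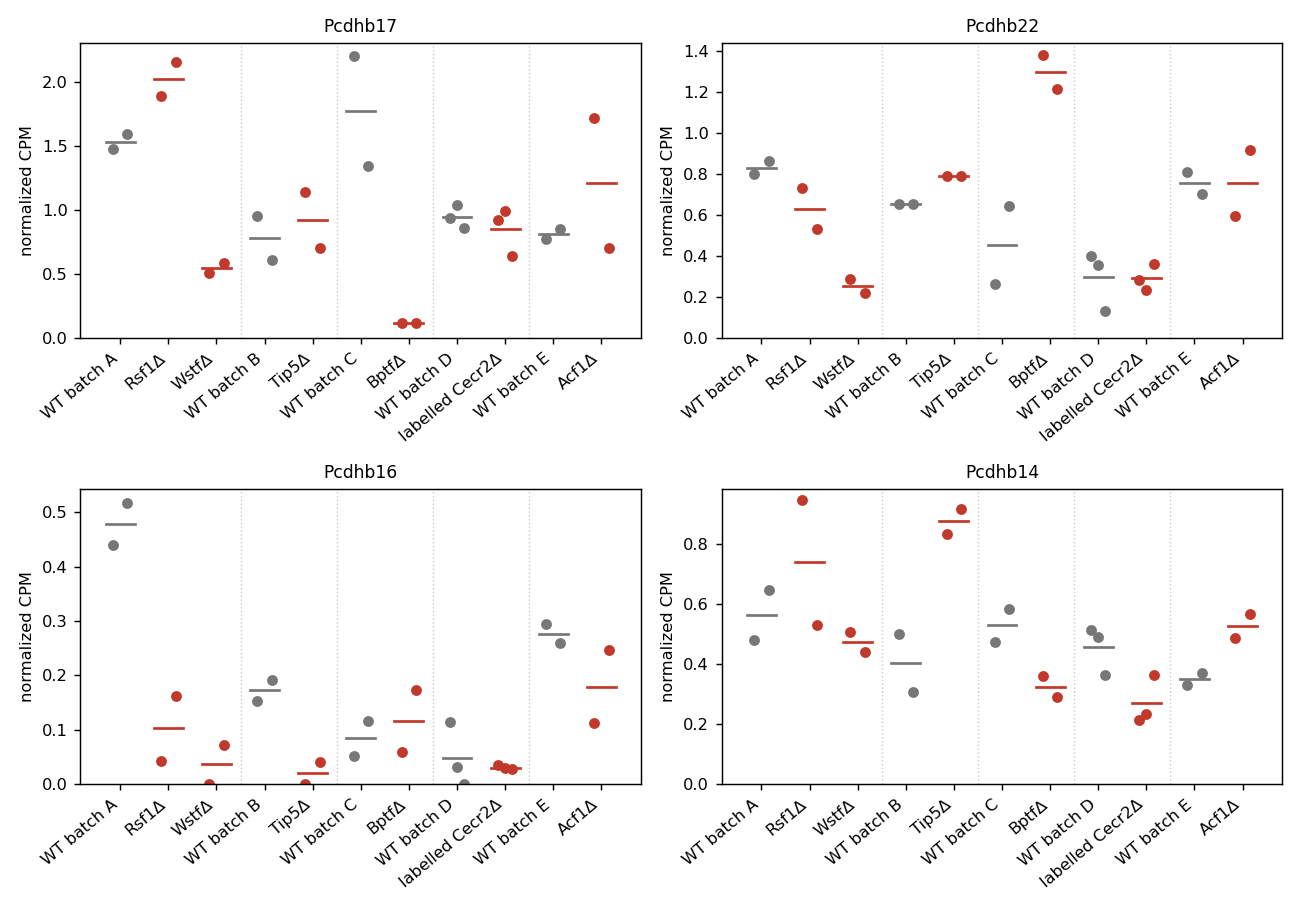
Normalized CPM of the β genes Pcdhb17, Pcdhb22, Pcdhb16 and Pcdhb14 in all 24 libraries, WT in grey and lines in red, with group means as bars and dotted lines between batches. Pcdhb17 is lowest and Pcdhb22 highest in BptfΔ, and Pcdhb16 in WT of batch A exceeds the WT of all other batches.

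Genes known to act on the cluster were read from a list of 20: CTCF, cohesin and its loaders, DNA and histone methyltransferases and repressors. Of these Dnmt3b, the de novo DNA methyltransferase known for methylating protocadherin promoters in early embryos, fell in WstfΔ, from 397 ± 0.59 to 157 ± 0.38 CPM (SD, n = 2 each), which is -1.34 ± 0.061 (SE) on the log2 scale. It fell in BptfΔ from 382 ± 11.5 to 107 ± 2.47 CPM, a log2 fold change of -1.83 ± 0.062. Dnmt3a, its relative, fell in BptfΔ from 184 ± 2.92 to 29.7 ± 2.33 CPM and rose in Acf1Δ from 134 ± 5.43 to 299 ± 20.6 CPM (SD, n = 2 each). The other regulators stayed within 2-fold or failed the test, Ctcf, Rad21 and Smchd1 among them, with 0 calls in Rsf1Δ, Tip5Δ and the libraries labelled Cecr2Δ. At an unadjusted p under 0.05 in edgeR those 3 had 10 (6 higher, 4 lower), 12 (11 and 1) and 9 (6 and 3) of the 20. The share of all genes under this p was not counted, here or elsewhere. WstfΔ and BptfΔ are also the lines in which γ members were called after subtraction (3 higher and 1 lower in WstfΔ, 8 higher in BptfΔ), and the part of the methyltransferases in that was not tested.

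Of 9 partners of protocadherin signalling, such as the focal adhesion kinase gene Ptk2 and the WAVE complex genes Wasf1 and Cyfip1, none was called in any line by edgeR, while at an unadjusted p under 0.05 BptfΔ and Acf1Δ had 5 each and the libraries labelled Cecr2Δ 0. Of 12 listed genes next to the cluster, a list that holds no protocadherin, only Arap3 in Rsf1Δ was called, from 262 and 270 to 114 and 147 counts (log2 fold change -1.02, adjusted p = 7.54e-06). Slc25a2 and Taf7, which lie between the β and γ genes, had log2 fold changes of 0.86 (adjusted p = 0.144) and 0.23 (0.0117) in BptfΔ.

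Non-clustered protocadherins, adhesion genes outside the α, β and γ subclusters and without constant exons, fell where they were called. Of 12 genes 6 passed the filter. Pcdh17 (0 and 3 against 27 and 32 counts) and Pcdh18 (1 and 1 against 32 and 30) fell in WstfΔ, and Pcdh1 (95 and 101 against 230 and 203) and Pcdh19 (15 and 7 against 37 and 34) in BptfΔ. Pcdh18 (7 and 8 against 32 and 30) and Pcdh7 (0 and 0 against 5 and 10) fell in Rsf1Δ, Pcdh18 (3 and 0 against 18 and 12) in Acf1Δ, and 0 were called in Tip5Δ or the libraries labelled Cecr2Δ, with 1 and 3 at an unadjusted p under 0.05. In BptfΔ their median log2 fold change was -1.87, against 0.64 for the γ members, and in WstfΔ it was -1.89, against 0.50.

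Markers of other cell types moved with the lines. Of 7 primitive endoderm markers 6 fell in Rsf1Δ, 5 in WstfΔ, 7 in Tip5Δ, 7 in BptfΔ and 6 in the libraries labelled Cecr2Δ, while 0 fell in Acf1Δ, where at an unadjusted p under 0.05 5 were higher and 1 lower. Their summed level was 275 to 281 CPM in BptfΔ against 1897 to 1990 in WT, and 961 to 1020 in Rsf1Δ against 3215 to 3741. In Tip5Δ that level was 589 to 626 against 3504 to 3556 CPM. Fibroblast markers were low, at most 34.4 CPM summed over 6 genes, with 3 of them lower in each line but the one labelled Cecr2Δ, where 3 were lower at an unadjusted p under 0.05. Thy1 was higher in WstfΔ. Of 10 neural markers Sox1 and Ncam1 rose and 2 fell in both WstfΔ and BptfΔ, 1 fell in Rsf1Δ and 2 in Acf1Δ. None was called in Tip5Δ or the libraries labelled Cecr2Δ by edgeR, with 4 and 3 at an unadjusted p under 0.05. Their list had a summed level of 161 to 162 CPM in BptfΔ against 139 to 144 in WT and of 111 to 118 against 163 to 172 in WstfΔ. No marker of these lists was at 0 in all 24 libraries. The part of other cells in the protocadherin counts was not tested.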

How the data were processed

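RNA was measured in 24 libraries of mESCs. The authors aligned reads to mm10 with QuasR (HISAT2 is also named in the submitters' processing notes), counted them per gene and deposited raw counts without normalization, with a width in bases per gene that the deposited table takes from the annotation and that was used here only for levels per kilobase. How shared exons, overlapping genes and strand were counted is not given in the sources used here: the labels name a stranded kit and the methods one that is not. Gene IDs were joined to RefSeq (GRCm38.p6), which held 24570 of 24594.

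With R 4.3.3 and edgeR 4.0.16, filterByExpr by genotype kept 15682 genes, TMM scaled the libraries and the quasi-likelihood test (legacy form) fitted the 24 libraries together, by batch and genotype, with Benjamini-Hochberg adjustment over all genes. Calls had an adjusted p below 0.01 and a change beyond 1 on the log2 scale either way. SE is the log2 fold change over the square root of F. P-values measure the spread between these libraries, which the methods call independent replicates. Counting intervals are exact (95%, conditional binomial) and cover counting error only, and 3 counts were taken as the floor. Members share exons if their summed count reaches 50% of the subcluster median, the rule set for the case without RefSeq exons. GENCODE exons were added. Fits of the subtracted counts and of their alternatives were partly chosen after seeing the data.

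The fits were also run on simulated data, in which the changed genes had higher counts than the α and most β members. That run therefore says nothing about members with so few counts. The members and lists were chosen with earlier results of these data known. Named were the C-type genes, the lowest and highest sharing members, the 5 most abundant β genes, up to 5 calls per line and direction with a mean of at least 10 counts in a group, the 3 members with the widest WT range, and up to 3 calls per line from each list. Pcdhb21, the genes of the subtracted fit and list genes without calls were named after their values were seen. Alternatives were DESeq2 1.42.0, the newer quasi-likelihood fit, RLE or no scaling, 2 filters, own WT only, no batch, a replicate block, no fold minimum, subtraction and leaving out each library.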

Additional observations from a re-analysis of the deposited data

Results flagged for a closer look

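The results given here are differences between the changes of 2 lines, each against its own WT libraries, that passed an edgeR quasi-likelihood contrast at an adjusted p under 0.01 and were over 1 on the log2 scale either way. Of 29 such contrasts of member counts 10 differed, and of 57 with shared counts subtracted 15 did. Each was run on a member called in at least 1 of the 2 lines, so a difference follows in part from that choice. Lines whose WT libraries are the same (Rsf1Δ and WstfΔ) share those values. No explanation was tested.

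For Pcdhb17 the change in BptfΔ lay below that in 4 other lines, and the difference from WstfΔ did not pass (2.39 for WstfΔ minus BptfΔ, adjusted p = 0.0352). The difference in log2 fold change was 4.27 for Rsf1Δ minus BptfΔ, 4.09 for Tip5Δ minus BptfΔ, -3.71 for BptfΔ minus the libraries labelled Cecr2Δ and -4.43 for BptfΔ minus Acf1Δ. WstfΔ was below 2 lines, with 1.88 for Rsf1Δ minus WstfΔ and -2.05 for WstfΔ minus Acf1Δ, while its differences from Tip5Δ (adjusted p = 0.0295) and from the libraries labelled Cecr2Δ (0.0604) did not pass. For Pcdhb22 the change in BptfΔ lay above that in 2 lines, with -1.93 for Rsf1Δ minus BptfΔ and -3.22 for WstfΔ minus BptfΔ, while its differences from Tip5Δ (adjusted p = 0.0893), Acf1Δ (0.0291) and the libraries labelled Cecr2Δ (0.0349) did not pass. Pcdhac2, which shares its reads with the other α genes, differed by -2.76 for Rsf1Δ minus Tip5Δ and by -2.62 for Rsf1Δ minus the libraries labelled Cecr2Δ. The same contrasts of Pcdha8, with most of the same reads, did not pass (adjusted p = 0.0119 and 0.0113).

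With shared counts subtracted, Pcdhgc3 differed by -1.86 for Rsf1Δ minus BptfΔ, -1.15 for WstfΔ minus BptfΔ, -1.87 for Tip5Δ minus BptfΔ, 1.57 for BptfΔ minus the libraries labelled Cecr2Δ and 2.05 for BptfΔ minus Acf1Δ. Pcdhga11 differed by -1.52 for Rsf1Δ minus BptfΔ, -1.37 for Tip5Δ minus BptfΔ and 1.82 for BptfΔ minus Acf1Δ. Pcdhgb2 differed by -1.86 for Rsf1Δ minus BptfΔ, 1.59 for BptfΔ minus the libraries labelled Cecr2Δ and 1.53 for BptfΔ minus Acf1Δ. Pcdhga8 differed by -1.80 for WstfΔ minus BptfΔ and 1.27 for BptfΔ minus Acf1Δ (Tip5Δ minus BptfΔ, at -0.96 with an adjusted p of 0.00474, was under the fold minimum), and Pcdhga12 by -1.29 for Tip5Δ minus BptfΔ and 1.22 for BptfΔ minus Acf1Δ. These genes were chosen as called in BptfΔ or WstfΔ, so a larger change in BptfΔ follows in part from the choice. Of their other contrasts with BptfΔ, that with WstfΔ did not pass for Pcdhga12 (-0.10, adjusted p = 0.872), Pcdhga11 (0.0579) and Pcdhgb2 (0.0287), that with Tip5Δ for Pcdhgb2 (0.169), that with Rsf1Δ for Pcdhga12 (0.0641) and Pcdhga8 (0.0576), and that with the libraries labelled Cecr2Δ for Pcdhga11 (0.0115), Pcdhga12 (0.0143) and Pcdhga8 (0.0428). No contrast of Pcdhga2, Pcdhga5, Pcdhga7 or Pcdhgb8 passed.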

How the results depend on the processing

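The number of members called moved with the processing, and the cause was not tested. In Rsf1Δ, where 2 were called, it was 0 with DESeq2, 7 with the newer quasi-likelihood fit, 11 with no filter beyond 1 count, 0 without a batch term, 12 when the line was fitted alone with its own WT, 0 with shared counts subtracted and 0 to 1 when leaving out a library. In WstfΔ (2) it was 0, 1, 1, 0 and 1 under the first 5 of these, 24 with no fold minimum, 6 with shared counts subtracted and 0 when leaving out any library. In BptfΔ (2) it was 1 with DESeq2, 1 without a batch term, 24 with no fold minimum, 10 with shared counts subtracted and 1 to 2 when leaving out a library. In the libraries labelled Cecr2Δ it was 22 with no fold minimum, while Tip5Δ and Acf1Δ had 0 throughout. Among WT batches (5) it was 13 with the newer fit, 14 with no filter, 27 with no fold minimum and 0 to 17 when leaving out a library.

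Alternatives of the subtracted γ counts were chosen after seeing the data. In WstfΔ (4 calls) they gave 0 without a batch term and 0 to 2 when leaving out a library, in Tip5Δ (0) 1 with own WT only, and in BptfΔ (8) 5 when leaving out any library.

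Without a batch term, against all 11 WT libraries, the median log2 fold change of α members was -1.41 in Rsf1Δ, 0.13 in WstfΔ, -0.44 in the libraries labelled Cecr2Δ and 1.07 in Tip5Δ, that of β members 0.15 in Rsf1Δ and -1.14 in WstfΔ, and that of γ members 0.087 in Rsf1Δ, 0.18 in Tip5Δ, 0.064 in BptfΔ, 0.19 in Acf1Δ and 0.18 in the libraries labelled Cecr2Δ. The sign thereby changed for α in WstfΔ, BptfΔ (to -0.39) and the libraries labelled Cecr2Δ, for β in Rsf1Δ and for γ in Tip5Δ and Acf1Δ.

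The replicate numbers did not pair the libraries (correlations of same-numbered deviations across genes from -0.16 to 0.049, where with 2 libraries a group both numbers give 1 value), and adding them as a replicate block left 1 call in Rsf1Δ, 1 in BptfΔ and 2 among subtracted γ counts in WstfΔ. Of the named members it ended the calls of Pcdha8 in Rsf1Δ (adjusted p = 0.0132) and Pcdhb22 in BptfΔ (0.0130), and, with shared counts subtracted, of Pcdhga2 (0.0104) and Pcdhga5 (0.0137) in WstfΔ and of Pcdhga5 (0.0156) and Pcdhgb2 (0.0120) in BptfΔ. It changed no other call.

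Pcdhb17 in BptfΔ (log2 fold change -4.17 to -3.22) and subtracted Pcdhgc3 in BptfΔ (0.92 to 1.72) kept an adjusted p under 0.01 in each alternative, though without a batch term the latter was under 2-fold. Depth limits the α and most β members, at a floor of 3 counts.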
